A study of Mus musculus with 4 samples.

Results

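The miR-30 family was followed here through 8 names of the deposited table, the guide strands mmu-miR-30a-5p, mmu-miR-30b-5p, mmu-miR-30c-5p, mmu-miR-30d-5p and mmu-miR-30e-5p and the passenger strands mmu-miR-30a-3p, mmu-miR-30d-3p and mmu-miR-30e-3p, written below without the prefix for mouse. They were chosen by name alone, and they covered 1594 of the 85704 sequences and 8 of the 1029 miRNA names. All sequences that carried a name were summed within each library. The libraries came from Ago-RP-Seq, in which a tagged peptide of GW182 pulls the Ago proteins out of a lysate and the short RNAs they hold (R-sRNAs) are sequenced. The tissue was cortex and hippocampus combined from male C57BL/6J (BL6) mice, and there were 2 libraries of mice aged 2 months and 2 of mice aged 18 months. The labels do not give the number of animals behind a library, so the p-values measure the spread between these libraries only. The comparison of the ages bears on whether the small RNAs loaded into the RISC of the brain differ between young and old mice.

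A miRNA hairpin is cut into a duplex of a 5p and a 3p strand, and Ago keeps mostly the one that becomes the guide. The guide finds its targets with its seed, the bases that follow its first nucleotide, and the miR-30 genes share the seed of their 5p strand while they differ further along. The family is known as broadly expressed, also in the brain, and as a regulator of differentiation and autophagy. The mature sequences are shown because the shared seeds and the few differing bases define the members. They are from RefSeq (GRCm38.p6), which held 5 of the 8 members, and capitals mark the seed at bases 2 to 8.
miR-30a-5p: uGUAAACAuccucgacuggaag
miR-30c-5p: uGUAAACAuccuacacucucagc
miR-30e-5p: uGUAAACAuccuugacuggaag
miR-30a-3p: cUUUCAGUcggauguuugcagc
miR-30e-3p: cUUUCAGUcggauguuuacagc
The 5p strands shared one seed and the 3p strands another. Counted from the 5′ end, the mature miR-30a-5p and miR-30e-5p differed only by C13U, and miR-30a-3p and miR-30e-3p only by G18A. The mature miR-30c-5p differed from miR-30a-5p at 5 of 22 positions, all of them from position 13 onward. In the most abundant reads of the table, miR-30d-5p differed from miR-30a-5p at 1 of 20 positions, and miR-30b-5p and miR-30c-5p were alike over their first 18 bases. A read that could belong to more than one member was found only for miR-30b-5p, where 1 such sequence held 0.113 to 0.308% of its reads.

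The hairpins with coordinates lie in 2 pairs on GRCm38.p6. Mir30a (chr1:23272269-23272339) and Mir30c-2 (chr1:23291701-23291784) are on the plus strand with 19361 bases between them, the former outside any annotated host gene and the latter within an exon of the lincRNA Gm27028. Mir30e (chr4:120772606-120772697) and Mir30c-1 (chr4:120769534-120769622) are on the minus strand, 2983 bases apart, and both lie within introns of Nfyc in its direction, a gene for a subunit of the transcription factor NF-Y. The reads of miR-30c-5p can come from either of its hairpins, whose mature 5p strands are the same.

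The libraries held 9067007 to 11388999 reads, so that 3 reads were worth 0.263 to 0.331 CPM, and 96.6 to 96.7% of the reads had a miRNA name. The neuronal miR-124-3p, a defining miRNA of the labelled tissue, was at 104115 and 107034 CPM in the young and 98222 and 69405 CPM in the old libraries, lower in the latter without overlap. The other neuronal marker, miR-128-3p, overlapped between the ages, with a mean of 49947 and then 62867 CPM. Of 25 miRNAs that mark 10 cell types, 24 were found and the erythrocyte miRNA miR-486a-5p was at 0. The summed markers of 5 cell types did not overlap between the ages. Of the 456 miRNAs with a mean of at least 10 CPM, 53.5% did not overlap, 41.4% with the lower values at 18 months. Single markers did not all follow these sums, since miR-126a-5p of endothelium and miR-223-3p and miR-142a-3p of leukocytes and microglia overlapped. In the 2-month and then the 18-month libraries, endothelium (2 miRNAs) was at 11472 to 12243 and 5422 to 8990 CPM, smooth muscle (2 miRNAs) at 6415 to 6559 and 4915 to 5033 CPM, leukocytes and microglia (4 miRNAs) at 3139 to 3566 and 2767 to 2897 CPM, the epithelial list (6 miRNAs) at 30046 to 51734 and 63458 to 68622 CPM, and the liver marker at 6.48 to 7.11 and 5.01 to 6.07 CPM. Their part in any difference of the miR-30 family between the ages was not tested, and in bulk tissue fewer cells of a type and less RNA per cell cannot be told apart.

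Together the 5p members took 4.44% and 4.22% of all reads at 2 months and 4.88% and 5.47% at 18 months, while the 3p members took 0.185% and 0.187%, then 0.206% and 0.170%. Among the guide strands, miR-30d-5p was the most abundant, at 14648 and 11542 CPM in the young and 14897 and 12174 CPM in the old libraries. It ranked 19 among the 1029 names. miR-30c-5p, the product of 2 hairpins, was at 9773 and 10451 CPM and then at 10632 and 14186 CPM, which placed it above miR-30d-5p in the second 18-month library only. miR-30e-5p was at 6733 and 7654 CPM in the young and 8198 and 10149 CPM in the old libraries. The values of miR-30a-5p, its neighbour in sequence, were 7060 and 6779 CPM and then 8048 and 9202 CPM, close to those of miR-30e-5p in each library. miR-30b-5p was the lowest guide, at 6145 and 5735 CPM and then at 7010 and 8994 CPM. The guides thus spanned a narrow range, since the shares of the 5p reads averaged 28.3% for miR-30d-5p, 23.6% for miR-30c-5p, 17.2% for miR-30e-5p, 16.3% for miR-30a-5p and 14.6% for miR-30b-5p over the 4 libraries.

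The order of neighbours was compared within each library by a two-sided exact permutation test over the 4 libraries, which cannot go below 0.13. miR-30c-5p was 1.30 to 1.45 times miR-30e-5p and miR-30a-5p was 1.02 to 1.18 times miR-30b-5p, in 4 of 4 libraries each (exact p = 0.13, adjusted over 6 pairs 0.188). The pairs miR-30d-5p and miR-30c-5p, with ratios of 0.858 to 1.5, and miR-30e-5p and miR-30a-5p, with ratios of 0.954 to 1.13, kept their order in 3 of 4 libraries and did not differ beyond their spread (exact p = 0.375, adjusted 0.375). The share of miR-30d-5p within its arm had the widest range, from 22.3 to 33.0%, and that of miR-30a-5p one of the narrowest, from 15.9 to 16.8%.

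Among the passenger strands, miR-30a-3p was at 939 and 940 CPM in the young and 1035 and 886 CPM in the old libraries. miR-30e-3p was at 879 and 909 CPM and then at 1000 and 784 CPM. Both ranked far below their guides, at 116 and 118 of 1029, and miR-30a-3p was 1.03 to 1.13 times miR-30e-3p in 4 of 4 libraries (exact permutation test, p = 0.13, adjusted 0.188). miR-30d-3p was much scarcer, at 29.1 and 22.7 CPM and then at 24.4 and 32.4 CPM, and miR-30e-3p was 24.2 to 41.0 times as abundant (exact permutation test, p = 0.13, adjusted 0.188). The remaining strands of the same hairpins were at similar low levels. miR-30c-2-3p was at 18.6 to 25.8 CPM, miR-30c-1-3p at 16.9 to 21.7 CPM and miR-30b-3p at 8.04 to 11.8 CPM, and miR-30f was not found in the table. The passengers thus formed an abundant pair, a and e, and a scarce set, b, c and d, whereas the guides all lay between 5735 and 14897 CPM.

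**Figure D1:**
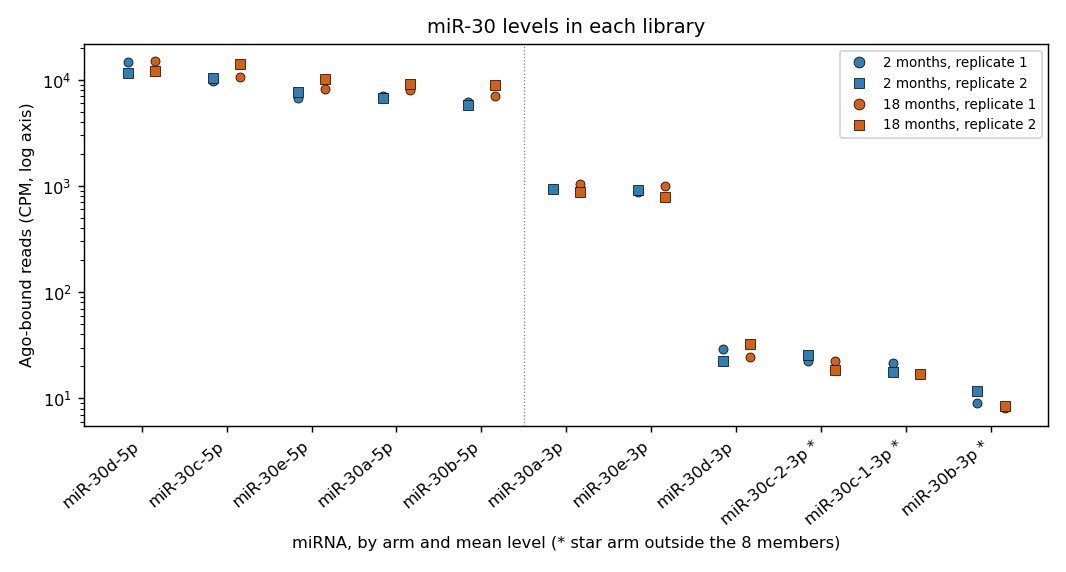
Level of each miR-30 strand in each library, as CPM on a log axis, with blue points for 2 months and orange points for 18 months, circles for replicate 1 and squares for replicate 2; names with a star are strands outside the 8 members. The 5p strands lie between 5735 and 14897 CPM, miR-30a-3p and miR-30e-3p between 784 and 1035 CPM, and the other 3p strands at or below 32.4 CPM.

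The share of the 3p strand in all reads of its hairpin put this difference on one scale. For miR-30a it was 11.7% and 12.2% in the young and 11.4% and 8.78% in the old libraries, and for miR-30e it was 11.5% and 10.6% and then 10.9% and 7.17%. For miR-30d it was 0.198% (95% Wilson interval 0.177 to 0.222%) and 0.196% (0.173 to 0.221%) and then 0.164% (0.145 to 0.185%) and 0.266% (0.237 to 0.298%). These intervals and all limits from read counts cover counting error only, since PCR copies without molecular identifiers are not independent molecules. In other words, the miR-30d hairpin gave 375 to 611 guide reads for each passenger read, while miR-30a gave 7.21 to 10.4 and miR-30e 7.66 to 12.9. miR-30b, with 0.0943 to 0.205%, and miR-30c, with 0.250 to 0.452% over its 2 hairpins, resembled miR-30d.

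Among 142 hairpins with at least 10 CPM of both arms, the smaller arm took a median of 11.8% of the reads. With CPM summed over the 4 libraries, miR-30a, at 10.9%, and miR-30e, at 9.84%, were close to that median. miR-30d, at 0.203%, had only 1 of these hairpins below it. The minimum leaves out hairpins with a scarcer smaller arm, such as miR-30b, whose 3p strand had a mean of 9.32 CPM. The median and the rank therefore hold for this set only. The share of the 3p strand was higher for miR-30a than for miR-30d by 8.52 to 12 percentage points, and for miR-30e than for miR-30d by 6.91 to 11.3 points, in 4 of 4 libraries (exact permutation test, p = 0.13, adjusted over 5 comparisons 0.156). It was lower for miR-30e than for miR-30a by 0.192 to 1.61 points in the same number of libraries (exact permutation test, p = 0.13, adjusted 0.156). Over the 8 members the share was 3.02 to 4.25%. It was 2.09 to 3.26% for let-7, another abundant guide family of the brain, which lay below in 3 of 4 libraries (exact permutation test, p = 0.25, adjusted 0.25), and 0.0171 to 0.0259% for miR-26.

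**Figure D2:**
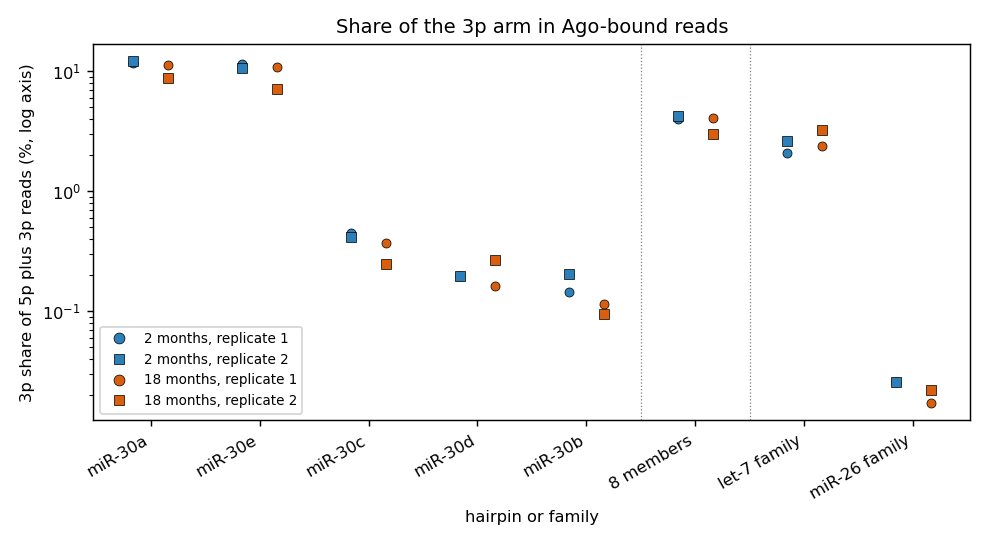
Share of the 3p strand in the reads of each hairpin, in percent on a log axis, per library, with the 8 members together and 2 other families on the right; blue is 2 months, orange 18 months, circles are replicate 1 and squares replicate 2. The hairpins a and e lie at 7.17 to 12.2%, and c, d and b at 0.0943 to 0.452%.

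The seed at bases 2 to 7 decides the 6mer seed viability, the mean percent viability of 3 mouse cell lines after transfection of that seed, in which a low value stands for a toxic seed. The guide seed GUAAAC had a viability of 76.4% and the passenger seed UUUCAG one of 70.1%. By way of comparison, the mean over all R-sRNAs of the table, weighted by reads, was 57.7%, 57.9%, 58.1% and 58.4% in the 4 libraries. The family was nearly alone in carrying its seeds. Members held 96.6 to 97.4% of all reads with the seed GUAAAC, the only other miRNA name with it was miR-384-5p (mean 874 CPM), and members held 99.5% of the reads with the seed UUUCAG. Weighted by reads over all 5′ ends, the viability was 76.5 to 76.9% for the guides and 65.4 to 69.7% for the passengers, so that the arms did not overlap.

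The passengers differed from each other in where their reads began. The guides carried their main seed in 96.3 to 98.6% of the reads. The guide reads that began 1 base further in, with the seed UAAACA (viability 95%), made up 0.814 to 2.58%, and those that began 1 base earlier, with the seed UGUAAA (84.2%), 0.236 to 0.599%. For miR-30e-3p the main seed was in 96.7%, 97.2%, 97.3% and 97.3% of the reads, which is the range of the guides. For miR-30a-3p it was in 75.5%, 75.7%, 75.2% and 74.0%, and for miR-30d-3p in 70.8%, 81.4%, 75.6% and 80.9%. Nearly all other reads of these strands began 1 base further in, which changes the seed to UUCAGU with a viability of 54.0%.

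The share of this shifted seed was 23.7 to 25.4% for miR-30a-3p and 1.95 to 2.27% for miR-30e-3p, a difference of 21.4 to 23.5 points in 4 of 4 libraries (exact permutation test, p = 0.13, adjusted over 3 pairs 0.188). It was 18.6 to 29.2% for miR-30d-3p, also above miR-30e-3p in 4 of 4 libraries (exact permutation test, p = 0.13, adjusted 0.188), though miR-30d-3p rested on 258 to 305 reads per library. miR-30a-3p and miR-30d-3p did not differ beyond their spread, with a difference of -5.47 to 6.37 points (exact permutation test, p = 0.5, adjusted 0.5). The viability weighted by reads was accordingly 65.9 to 66.2% for miR-30a-3p and 69.6 to 69.7% for miR-30e-3p, although the mature strands have the same seed and differ at a single base near the 3′ end. The most abundant reads of both 5′ ends are shown as deposited, in DNA letters, with bases 2 to 8 in capitals.
miR-30a-3p, main 5′ end: cTTTCAGTcggatgtttgcagt
miR-30a-3p, shifted 5′ end: tTTCAGTCggatgtttgcagt
miR-30e-3p, main 5′ end: cTTTCAGTcggatgtttacagt
miR-30e-3p, shifted 5′ end: tTTCAGTCggatgtttacagc
The shifted read of miR-30a-3p was at 84.5, 91.0, 95.7 and 77.9 CPM in the 4 libraries, and that of miR-30e-3p at 8.49, 6.50, 6.34 and 4.19 CPM.

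The 3′ ends also set the arms apart. A 3′ tail was counted where the last 1 to 3 bases of a read did not continue its RefSeq hairpin, which could be done for 5 members. An added base that equals the next base of the hairpin is not seen this way. The share of tailed reads and the share of each tail base thus also depend on the hairpin sequence. Tailed reads made up 3.57 to 9.08% of the 3 guides and 37.3 to 44.7% of the 2 passengers, so that the arms did not overlap in any library. A single U was the most frequent tail of the passengers, with 30%, 31.1%, 33.0% and 27.8% of the reads of miR-30a-3p and 34.3%, 34.9%, 37.7% and 31.5% of those of miR-30e-3p. A single A added 3.42 to 4.93% and 2.95 to 3.71%. Among the tails that could be seen in the guides a single A led. It took 3.07 to 4.0% of miR-30a-5p, 1.64 to 2.00% of miR-30c-5p and 3.20 to 4.72% of miR-30e-5p, and a single U took 1.11 to 3.34%. The tailed and the hairpin-encoded form of each passenger are shown with the last base in capitals.
miR-30a-3p, tailed: ctttcagtcggatgtttgcagT
miR-30a-3p, hairpin: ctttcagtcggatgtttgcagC
miR-30e-3p, tailed: ctttcagtcggatgtttacagT
miR-30e-3p, hairpin: ctttcagtcggatgtttacagC
For miR-30e-3p the tailed form was at 290, 308, 365 and 238 CPM and the hairpin form at 243, 271, 277 and 202 CPM, with the tailed form higher in 4 of 4 libraries. For miR-30a-3p the tailed form was at 191, 198, 241 and 165 CPM and the hairpin form at 192, 206, 208 and 150 CPM, and neither was higher throughout. The shares of tailed reads overlapped between the ages for both passengers and for miR-30a-5p and miR-30e-5p, and they did not for miR-30c-5p, with 3.96% and 4.14% and then 3.64% and 3.57% (exact permutation test, p = 0.33). This p is the smallest that 2 against 2 allows, and tails were not counted in other miRNAs.

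**Figure D3:**
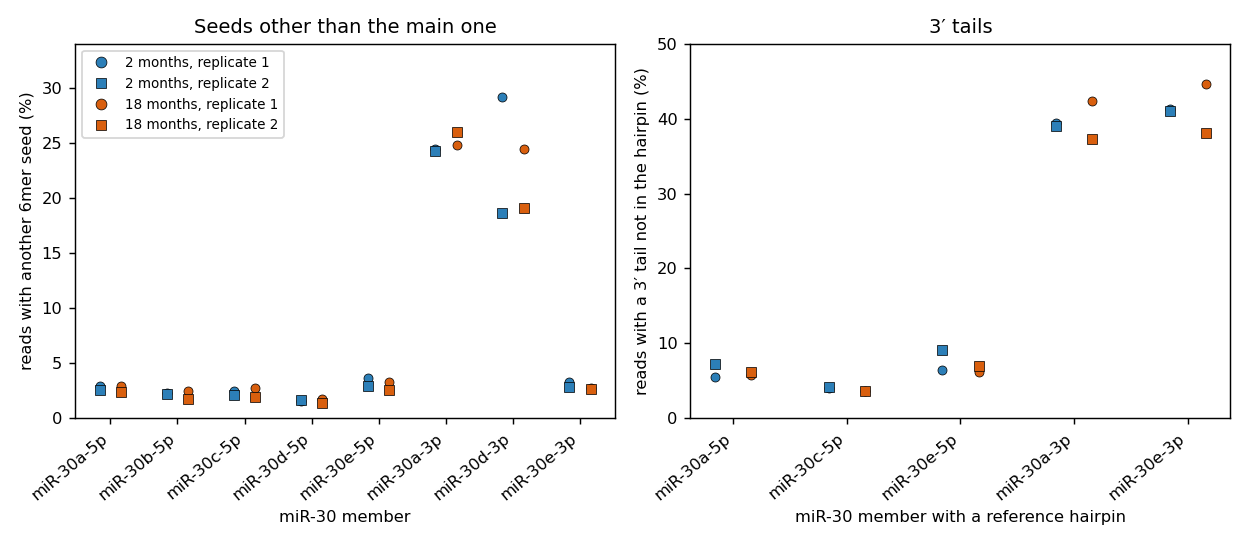
Left, share of the reads of each member with a seed other than its main one; right, share with a 3′ tail that is not in the hairpin, for the 5 members with a reference hairpin; both in percent per library, blue for 2 months and orange for 18 months, circles for replicate 1 and squares for replicate 2. miR-30a-3p and miR-30d-3p stand out on the left, and both passengers, at 37.3 to 44.7%, on the right.

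Between the ages, the sum of the guides was higher at 18 months and the 3p sum overlapped on the CPM scale, where no member passed the test. The 5p sum was 44359 and 42160 CPM in the young and 48785 and 54705 CPM in the old libraries, a ratio of 1.20, and the ages did not overlap (exact permutation test, p = 0.33, the smallest that 2 against 2 allows). The 3p sum was 1846 and 1872 CPM and then 2059 and 1703 CPM, and the ages overlapped (exact permutation test, p = 1). With limma on log2(CPM + 1), 0 of the 8 members were called at an unadjusted p under 0.05, against 16.2% of the 456 miRNAs tested, of which 4.17% were higher and 12.1% lower at 18 months. The log2 differences (18 minus 2 months) were 0.42 ± 0.22 (SE) for miR-30b-5p, 0.35 ± 0.22 for miR-30e-5p, 0.31 ± 0.21 for miR-30a-5p, 0.28 ± 0.23 for miR-30c-5p and 0.05 ± 0.24 for miR-30d-5p. For the passengers they were 0.13 ± 0.28 for miR-30d-3p, 0.03 ± 0.21 for miR-30a-3p and -0.01 ± 0.22 for miR-30e-3p. Without the second 18-month library the log2 differences were 0.24 for miR-30b-5p, 0.22 for miR-30a-5p, 0.19 for miR-30e-5p and 0.07 for miR-30c-5p. The lowest adjusted p of a member was 0.393 in limma, for miR-30b-5p. All 5p members except miR-30d-5p had ages that did not overlap, with the higher values at 18 months, which was so for 12.1% of all miRNAs tested. Ages that did not overlap were found for 53.5% in all, 41.4% with the lower values at 18 months.

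The scale of the libraries bears on these values. The median log2 difference of all miRNAs tested was -0.22 for CPM and -0.01 once each library was scaled by its median ratio to the geometric mean of the libraries (rescaling), which turned the calls of all miRNAs from 19 higher and 55 lower to 39 higher and 25 lower. After rescaling, miR-30a-5p (0.53 ± 0.21), miR-30b-5p (0.63 ± 0.22) and miR-30e-5p (0.56 ± 0.22) rose at an unadjusted p in limma of 0.0394, 0.0253 and 0.0426, against 8.55% of all miRNAs called higher. Their adjusted p in limma was 0.340, 0.271 and 0.340, so that no member passed after adjustment. miR-30c-5p (0.49 ± 0.23, unadjusted p in limma 0.0696) and miR-30d-5p (0.26 ± 0.24, 0.307) did not pass. Relative to the median of all miRNAs, the 8 members lay above it by 0.21 for miR-30e-3p to 0.64 for miR-30b-5p on the CPM scale and by 0.21 to 0.65 after rescaling. Rescaling shifts a member and the median almost alike, so these ranges are not separate results. edgeR and DESeq2 on the recovered reads called the same 3 guides higher without adjustment, against 8.55% and 9.43% of all miRNAs called higher. The adjusted p of these guides was 0.252 to 0.329 in edgeR and 0.155 to 0.290 in DESeq2, so that none passed. After rescaling the 5p sum was 40628 and 39740 in the young and 53465 and 57819 in the old libraries, and the 3p sum was 1691 and 1764 and then 2257 and 1800. The ages did not overlap for either sum (exact permutation test, p = 0.33 each), though for the 3p sum they were parted only by 1764 against 1800. The share of all miRNAs without overlap was not counted on this scale. The direction of miR-30e-3p flipped to 0.20 ± 0.23 after rescaling.

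**Figure D4:**
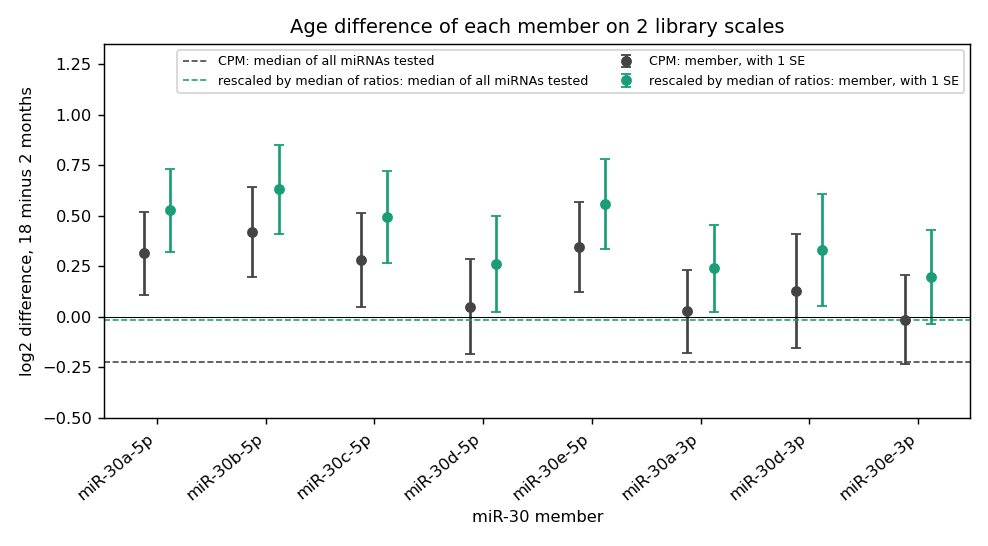
log2 difference between the ages (18 minus 2 months) of each member with 1 standard error, on the CPM scale (grey) and after rescaling by the median of ratios (green), from 4 libraries; dashed lines are the medians of the 456 miRNAs tested. Every member lies above the median of its scale, and the bars of miR-30a-5p, miR-30b-5p, miR-30c-5p and miR-30e-5p clear 0 on both scales.

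The ratio of the arms does not depend on the scale of a library. The log2 of the 5p to 3p ratio differed between the ages by 0.29 ± 0.34 for miR-30a, 0.36 ± 0.37 for miR-30e and -0.08 ± 0.31 for miR-30d, and 0 of these 3 hairpins were called, against 2.82% of 142 hairpins (limma, lowest adjusted p of the 3 hairpins 0.891). The second 18-month library had the lowest 3p share of miR-30a and miR-30e and the highest of miR-30d. Without it the differences were 0.08 for miR-30a and 0.03 for miR-30e, and that of miR-30d turned to 0.27, none of them called. Without the first 18-month library they were 0.50, 0.69 and -0.42 in the same order, also not called. Of all 142 hairpins, 0.704% were called with a higher and 2.11% with a lower ratio at 18 months. The ratio of miR-30a was higher at 18 months without overlap, as in 14.8% of the hairpins, and ages did not overlap in either direction for 35.9%, while those of miR-30d and miR-30e overlapped. The 3p share of miR-30b was 0.146% and 0.205% at 2 months and 0.115% and 0.0943% at 18 months, on 77 to 134 reads. That of miR-30c was 0.452% and 0.414% and then 0.371% and 0.250%. Neither was among the 142 hairpins, and in both the share was lower at 18 months without overlap.

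A difference between the ages was seen in the length of the guides. The mean read length of miR-30e-5p was 21.8 and 21.9 nt at 2 months and 21.3 and 21.4 nt at 18 months, and that of miR-30a-5p was 21.7 and 21.8 nt and then 21.4 and 21.4 nt. For miR-30c-5p it was 22.8 and 22.7 nt and then 22.6 and 22.4 nt. In all 5 guides the ages did not overlap and the reads were shorter at 18 months, as was so for 34.4% of all miRNAs tested, against 8.33% with longer reads and 42.8% in either direction, while the 3 passengers overlapped. In a limma fit of the mean length of 456 miRNAs, a test that was chosen after the values had been seen, 3 of 8 members were called shorter at an unadjusted p under 0.05, against 7.46% of all miRNAs called shorter, 1.97% called longer and 9.43% called in either direction. The differences were -0.48 ± 0.07 nt for miR-30e-5p (unadjusted p in limma 0.00221), -0.33 ± 0.04 nt for miR-30a-5p (0.00125) and -0.23 ± 0.08 nt for miR-30c-5p (0.0396), against a median of -0.03 nt over all miRNAs. miR-30b-5p (-0.06 ± 0.04 nt) and miR-30d-5p (-0.07 ± 0.04 nt) did not pass. After adjustment none passed, with a lowest adjusted p in limma of 0.285 and 0 of the 456 miRNAs called. The call of miR-30c-5p was lost without either 2-month library and without the second 18-month library, at unadjusted p in limma of 0.150, 0.134 and 0.0954. The mean length of all reads with a miRNA name was 21.6 and 21.6 nt at 2 months and 21.5 and 21.6 nt at 18 months.

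The change lay in the balance of forms that begin at the same base. Among reads of miR-30e-5p with the main 5′ end, 35.4% and 28.1% had 20 or 21 nt at 2 months and 46.3% and 49.1% at 18 months, while forms of 22 to 24 nt went from 53.1% and 58.8% to 39.9% and 40.8%. For miR-30a-5p the shares were 36.9% and 33.1% and then 46.7% and 51.4% for the short forms, and 54.7% and 57.4% and then 44.2% and 41.3% for the long ones. miR-30b-5p, in contrast, was a single sharp peak, with 73.1 to 75.6% of its reads at 22 nt in each library, and miR-30c-5p was the longest guide, with 29.7 to 34.4% at 24 nt. The 20-, 21- and 23-nt forms of miR-30a-5p and miR-30e-5p are shown as deposited, with the seed in capitals.
miR-30a-5p, 20 nt: tGTAAACAtcctcgactgga
miR-30a-5p, 21 nt: tGTAAACAtcctcgactggaa
miR-30a-5p, 23 nt: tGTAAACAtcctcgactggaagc
miR-30e-5p, 20 nt: tGTAAACAtccttgactgga
miR-30e-5p, 21 nt: tGTAAACAtccttgactggaa
miR-30e-5p, 23 nt: tGTAAACAtccttgactggaagc
The 20-nt form of miR-30a-5p was at 1548 and 1295 CPM and then at 2143 and 2373 CPM, and its 21-nt form at 950 and 852 CPM and then at 1444 and 2187 CPM. The 20-nt form of miR-30e-5p was at 1630 and 1335 CPM and then at 2501 and 2996 CPM, and its 21-nt form at 627 and 692 CPM and then at 1097 and 1792 CPM. These 4 sequences rose, by log2 differences of 0.67 ± 0.26, 0.98 ± 0.29, 0.89 ± 0.26 and 1.09 ± 0.31, at an unadjusted p in limma of 0.0285, 0.00800, 0.00791 and 0.00597, and none passed after adjustment over all sequences. The 23-nt forms had the opposite sign, at 1293 and 1069 CPM and then 892 and 915 CPM for miR-30a-5p and at 1147 and 1212 CPM and then 781 and 972 CPM for miR-30e-5p. Neither 23-nt form was called (log2 differences of -0.38 ± 0.26 and -0.44 ± 0.27, unadjusted p in limma 0.184 and 0.137).

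**Figure D5:**
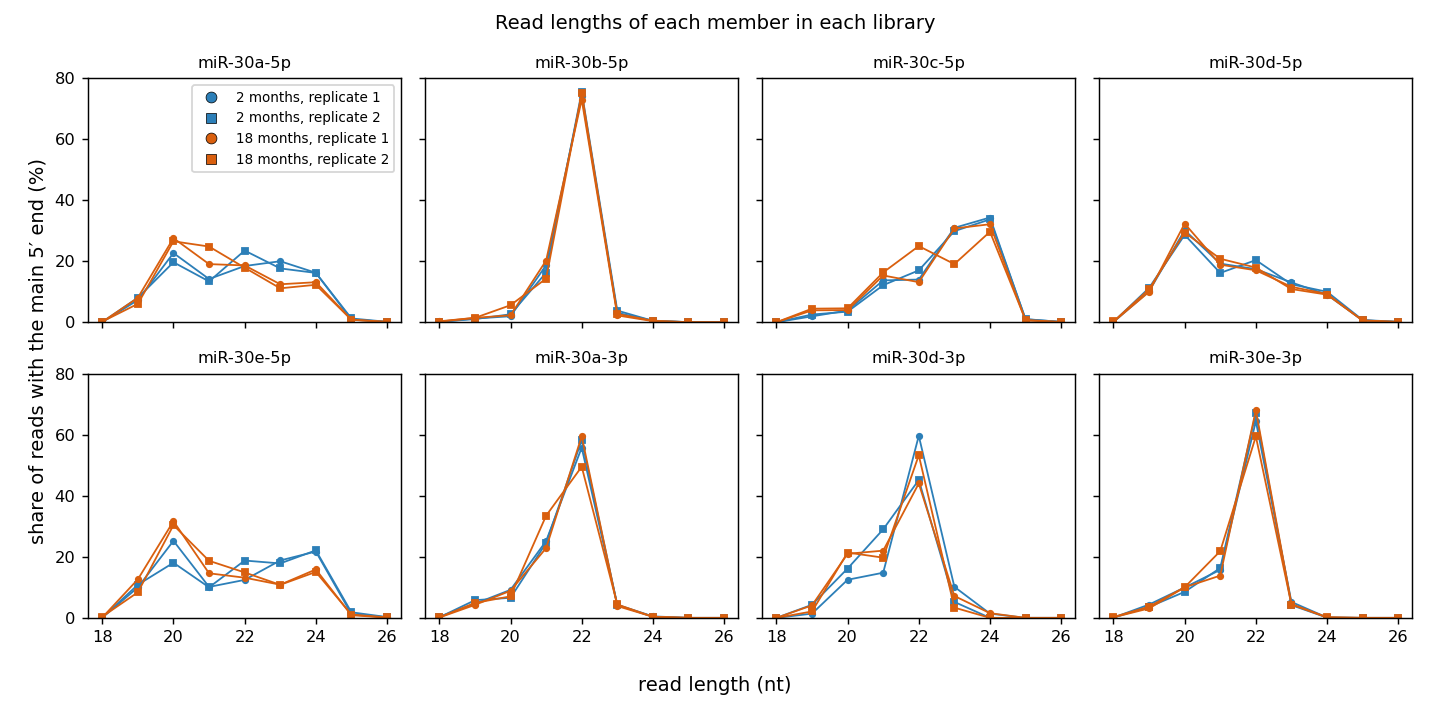
Share of the reads with the main 5′ end of each member by read length in nt, in percent, 1 line per library, blue for 2 months and orange for 18 months, circles for replicate 1 and squares for replicate 2. In miR-30a-5p and miR-30e-5p the orange lines lie above the blue ones at 20 and 21 nt and below them at 23 and 24 nt, and miR-30b-5p keeps its peak of 73.1 to 75.6% at 22 nt.

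Over single sequences, 411 of the 1594 sequences of the members had a mean of at least 1 CPM and were tested. Of these, 33 were called, 31 higher and 2 lower at 18 months, against 10.1% of all 14287 sequences called, 5.87% higher and 4.23% lower, and 0 passed after adjustment (lowest adjusted p in limma 0.268). The share of the members called was thus below that of the whole table, and the calls were nearly all in one direction. miR-30a-5p had 11 of 63 sequences higher, miR-30c-5p 8 of 82, miR-30e-5p 6 of 70, with 2 lower, miR-30b-5p 4 of 54 and miR-30d-5p 2 of 90, and the passengers had 0 of 52. The sequence with the lowest adjusted p was 1 of the 4 under miR-30b-5p. It is the 18-nt read that could also belong to miR-30c-5p. A split by length was chosen after the shift in length had been seen, so it is no separate test of that shift. Of the 129 guide sequences with 18 to 21 nt, 26 were called, all higher, against 7.78% of all miRNA sequences of these lengths. Their median log2 difference was 0.33 against 0.04. Of the 230 with 22 to 28 nt, 5 were called higher and 2 lower, against 5.30% called higher, and their median was 0.05 against -0.07. Fewer member sequences were called when the second 18-month or the second 2-month library was left out. The median log2 difference of the 411 sequences was 0.10 with all 4 libraries, and 0.12 and 0.09 in these 2 cases. Over all 14287 sequences it was -0.01 with all 4 libraries, and then 0.0015 and -0.04.

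The 6mer seed viability of the members depends by definition on where their reads begin and not on their 3′ ends. It differed between the ages by at most 0.04 percentage points for each guide, and the ages overlapped in all 5. For miR-30a-3p it was 66.2% and 66.2% at 2 months and 66.1% and 65.9% at 18 months, without overlap (exact permutation test, p = 0.33), and for miR-30e-3p it was 69.64% and 69.67% and then 69.72% and 69.75%, without overlap and higher at 18 months (exact permutation test, p = 0.33). The ages did not overlap in this measure for 35.3% of the 456 miRNAs, 18.2% with the lower and 17.1% with the higher values at 18 months.

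The miRNAs whose levels followed those of the arms most closely over the 4 libraries were found among 266 others with a mean of at least 100 CPM, by the Euclidean distance of centred log2(CPM + 1). For the 5p sum they were miR-1249-3p (distance 0.159), miR-551b-3p (0.170) and miR-21a-5p (0.178), against a median distance of 0.653. For the 3p sum they were miR-16-5p (0.0473), miR-152-3p (0.0690) and miR-24-3p (0.0903), against 0.553. miR-21a-5p, at 4266 and 3966 CPM and then at 5386 and 5565 CPM, was like the 5p sum higher in both 18-month libraries, and miR-16-5p, at 15898 and 15424 CPM and then at 17480 and 14524 CPM, was like the 3p sum highest in the first 18-month library and lowest in the second. Both were picked among 266 for closeness over the same 4 libraries, so the shared pattern follows from the choice.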

How the data were processed

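The authors trimmed the de-multiplexed reads (Trim Galore per the submitters' processing notes, version not given in the sources used here), dropped rare ones, assigned the others to mouse small RNAs with BLAST, and deposited read counts scaled to the library total (CPM) for each sequence and library. The authors also deposited a score, the 6mer seed viability in percent, and summed CPM as a second score, which was not used. Recovered reads were CPM divided by what 1 read was worth, and 100% of nonzero values came out whole, within 0.02 of a read. The members and lists were chosen with earlier results of these data known.

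CPM were summed by miRNA name. Age was the single covariate of two-sided fits with limma 3.58.1 (R 4.3.3) and its intensity trend, made on log2(CPM + 1) for miRNAs with a mean of at least 10 CPM, for sequences with at least 1 CPM and for the log2 ratio of arms with at least 10 CPM each. Mean read lengths were fitted without the trend. Following the methods, calls used an unadjusted p below 0.05, with Benjamini-Hochberg adjustment over everything tested beside it. Single values were compared by two-sided exact permutation tests, between libraries for ages (smallest p 0.33) and by sign flips within libraries for members (smallest p 0.13). Seeds are bases 2 to 7 unless stated, the main seed is that of a member's most abundant sequence, and a main 5′ end has its first 10 bases. Tails had at most 3 bases after at least 15 bases of hairpin. Alternatives were a replicate block, pseudocounts of 0.1 and 5, other filters, no trend, adjusted p, rescaling by the median of ratios, edgeR 4.0.16 and DESeq2 1.42.0 on recovered reads, stricter choices of sequences and leaving out each library. The fits were tested on simulated data. Named items were the 8 members, the other strands of their hairpins, let-7 and miR-26 beside arm shares, each member's leading sequences, and the 3 nearest miRNAs per arm. The shorter and longer forms were chosen after their values were seen.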

Additional observations from a re-analysis of the deposited data

Results flagged for a closer look

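Sequences without a miRNA name whose match among other small RNAs was a miR-30 hairpin were left out of the members, and they held a signal far above the 3 reads that set the limit of detection. There were 1109 such sequences, with a mean of 782 CPM, at 731 and 693 CPM in the young and 816 and 887 CPM in the old libraries. They came to 1.57 to 1.60% of the reads of the members in every library. The ages did not overlap (exact permutation test, p = 0.33, the smallest that 2 against 2 allows), with the higher values at 18 months. This was so for 12.1% of the 456 named miRNAs tested, and 53.5% did not overlap in either direction. As the share of these sequences relative to the members was nearly constant, their difference between the ages is not separate from that of the members.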

How the results depend on the processing

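There were 2 libraries per age, and miR-30d-3p had 258 to 305 reads in each. Over 34 results and 269 alternatives, 230 alternatives kept the direction and the side of the threshold or stayed within the spread. The replicate numbers come from the labels, and the deviations of same-numbered libraries correlated at 0.180 over 456 miRNAs. With only 2 pairs, this cannot decide whether same-numbered libraries share more than a number. With the replicate block, 0 members, 34 sequences, 0 arm ratios and 3 mean lengths were called, in place of 0, 33, 0 and 3. With rescaling, edgeR or DESeq2, 3 members were called in place of 0, all higher, against 8.55%, 8.55% and 9.43% of all miRNAs called higher. The log2 difference of miR-30e-3p turned to 0.20, 0.22 and 0.21 in these fits. In place of 33 sequences, 0 were called with adjusted p, 63 without a filter, 14 with at least 10 CPM and 21 with DESeq2, where the filters change how many are tested, and 11 to 31 when a library was left out. In place of 3 mean lengths, 0 were called with adjusted p, and 2 to 3 when a library was left out. Leaving out libraries gave log2 differences of 0.22 to 0.41 for miR-30a-5p, 0.24 to 0.60 for miR-30b-5p, 0.07 to 0.49 for miR-30c-5p, 0.19 to 0.50 for miR-30e-5p, -0.12 to 0.22 for miR-30d-5p, -0.084 to 0.14 for miR-30a-3p, -0.071 to 0.33 for miR-30d-3p and -0.19 to 0.16 for miR-30e-3p, and a difference of the 3p sum of -156 to 200.4 CPM. With only sequences of at least 1 CPM, the 3p share of miR-30d was 0.154%, the share of miR-30d-3p in its arm 1.12%, and the share of the main seed 97.8% for miR-30a-5p, 98.2% for miR-30b-5p, 98.7% for miR-30d-5p, 88.2% for miR-30d-3p and 98.1% for miR-30e-3p. With only 20 to 24 nt it was 98.1% for miR-30c-5p and 98.7% for miR-30d-5p. Apart from the filters, the cause of these moves was not tested.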
